A study of Rattus norvegicus with 2 samples.

Results

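Among the collagen-producing cells of the rat optic nerve libraries, 547 of 4036 barcodes were Inmt- and Cyp26b1-type fibroblasts, 90 of 2107 in WT and 457 of 1929 in the Nuc1 library. They were chosen by their own expression values. A barcode was kept if it had 500 genes or more and no more than 20% of its unique molecular identifiers (UMIs) from 13 mitochondrial genes. Of these, 2772 cells passed 3 gates, namely at least 500 UMIs per 1000000 UMIs of the cell (CPM) of Col1a1, Col3a1, Dcn and Lum together, under 500 CPM of the glial genes Gfap, Fabp7 and Aqp4, and under 300 CPM of the division genes Top2a, Mki67, Ube2c and Cenpf. Each of these scored fibroblasts was given the mean z-scored log level of 4 gene sets of 4 genes, and the cells described here are those in which set D (Inmt, Cyp26b1, Gjb2 and Vcam1) was the highest. The other sets were A (Ccn3, Rspo3, Tnmd and Cpxm2), B (Actg2, Penk, Car3 and Mfap5) and C (Cldn11, Thbd, Nkd2 and Tgm2), and the cells are called set A, B, C and D cells below.

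The WT library came from Sprague Dawley rats and the Nuc1 library from rats with a spontaneous insertion in the crystallin gene Cryba1, and both are labelled optic nerve at postnatal day 7. Title and methods speak of mixed glial cultures and the design text of digested nerve, so the time in culture is not known, and the culture methods name younger pups than the labels do. The number of animals behind each library and their sex are not given in the sources used here. The labels give no treatment for either group. The label of these cells adds leptomeningeal, which was checked against the genes of that layer below. With 1 library per genotype, no difference between them could be set against the spread of replicates, and none was tested. The intervals given are exact, at 95%, and reflect only the error of counting. Reads came from the 3′ end of each transcript, so levels are compared within a gene and not between genes.

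The meninges of the optic nerve are continuous with those of the brain, and their fibroblasts lie in the dura, the arachnoid and the pia. Leptomeningeal fibroblasts, those of the arachnoid and pia, are known for making retinoic acid with Aldh1a2, for lipid carriers and solute transporters, and for gap junctions and a basement membrane at the surface of nervous tissue. Of the 4 genes of set D, Inmt methylates indole amines, Cyp26b1 is a cytochrome that breaks retinoic acid down, Gjb2 is a gap junction connexin, and Vcam1 is an adhesion molecule bound by leukocyte integrins. Of 4 further markers, which the rule did not use, Apod is a lipocalin that carries lipids, Aqp1 a water channel, Ptges a prostaglandin E synthase and Cemip a protein that binds and breaks down hyaluronan.

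Promoter sequences are shown for the 4 markers that the values below turn on most, as RefSeq gives them for the GRCr8 assembly, from 250 bases before the annotated start of the gene to 50 after it. Inmt and Aqp1 are shown because they are neighbours on chromosome 4, with 1 annotated gene, Mindy4, between them, and are transcribed away from each other. Cyp26b1 and Vcam1 are the other genes of the rule whose level in the other classes was far lower. Capitals mark TATAAA and, in Vcam1, GGGATTTCC, a sequence of the kind bound by NF-kB.
The windows are chr4:85652706-85653005 on the minus strand for Inmt, chr4:85812534-85812833 on the plus strand for Aqp1, chr4:118616127-118616426 on the minus strand for Cyp26b1 and chr2:206742734-206743033 on the minus strand for Vcam1.
Inmt: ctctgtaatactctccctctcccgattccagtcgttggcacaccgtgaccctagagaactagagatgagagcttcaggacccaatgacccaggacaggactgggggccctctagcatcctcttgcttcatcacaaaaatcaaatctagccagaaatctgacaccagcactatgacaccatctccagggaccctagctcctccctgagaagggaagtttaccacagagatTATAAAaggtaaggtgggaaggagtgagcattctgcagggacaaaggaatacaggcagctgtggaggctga
Aqp1: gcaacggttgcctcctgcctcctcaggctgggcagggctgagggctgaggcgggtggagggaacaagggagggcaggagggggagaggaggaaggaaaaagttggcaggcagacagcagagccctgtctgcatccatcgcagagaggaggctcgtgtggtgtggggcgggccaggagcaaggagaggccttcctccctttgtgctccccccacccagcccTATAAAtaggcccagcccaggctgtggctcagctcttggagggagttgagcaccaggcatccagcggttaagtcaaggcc
Cyp26b1: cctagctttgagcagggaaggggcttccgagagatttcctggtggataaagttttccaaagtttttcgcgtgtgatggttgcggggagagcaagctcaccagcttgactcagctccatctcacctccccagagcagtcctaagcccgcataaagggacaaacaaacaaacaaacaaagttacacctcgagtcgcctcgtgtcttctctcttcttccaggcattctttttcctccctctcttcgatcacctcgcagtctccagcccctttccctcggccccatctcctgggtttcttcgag
Vcam1: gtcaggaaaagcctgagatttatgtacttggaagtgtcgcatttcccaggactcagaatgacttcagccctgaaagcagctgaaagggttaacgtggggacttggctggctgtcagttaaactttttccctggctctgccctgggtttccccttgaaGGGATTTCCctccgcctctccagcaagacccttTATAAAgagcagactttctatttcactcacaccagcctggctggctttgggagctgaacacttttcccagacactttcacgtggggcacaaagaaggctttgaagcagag
Both strands were searched for 4 motifs. TATAAA lay in 5 of the 8 marker promoters (Inmt, Vcam1, Apod, Aqp1 and Cemip), at positions -21, -60, -33, -30 and -31 from the start, and in 14.2% of 33469 promoters of the same length. GGGATTTCC lay in the Vcam1 promoter alone among the 8, and in 0.326% of all. AGGTCA, a core site of nuclear receptors, and GTAAACA, bound by forkhead factors, lay in none of the 8, against 16.2% and 3.78% of all promoters. Among the 12 of 15 leading genes (described below) that had a promoter in the table, TATAAA lay in 1. These matches describe letters in a window and do not show binding.

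Set D cells made up a larger share of the scored fibroblasts in the Nuc1 library. They were 90 of 1576 in the WT library, 5.71% (4.62 to 6.97), and 457 of 1196 in the Nuc1 library, 38.2% (35.4 to 41.0), a difference of 32.5 percentage points (29.5 to 35.5). Of all cells that passed the gene and mitochondrial limits the shares were 4.57% and 25.5%. Set A cells were 42.0% of scored fibroblasts in WT and 12.7% in the Nuc1 library, set B cells were 33.9% and 7.69%, and set C cells took 18.4% and 41.4%. Shares of 1 whole move together, and the levels of the set D genes themselves differed between libraries, so that a share cut from them is not a count of a cell type. When the z-scores were taken within each library, the set D cells were 12.8% and 30.9%, a difference of 18.2 points. When Apod, Aqp1, Ptges and Cemip replaced the genes of set D, the shares were 5.52% and 39.5%. These markers were also at least 2-fold higher in Nuc1 set D cells, so these shares have the same limit and are no separate support.

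**Figure D1:**
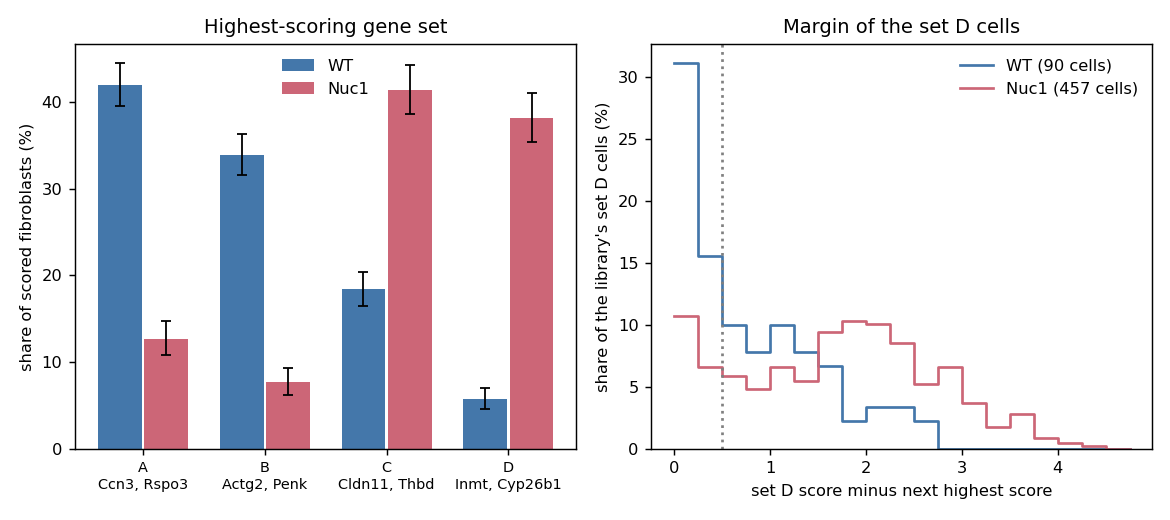
Left, the share of scored fibroblasts (percent) whose highest score was set A, B, C or D in the WT (blue, 1576 cells) and Nuc1 (red, 1196 cells) libraries, with exact binomial 95% intervals as bars. Right, the share of each library's set D cells (percent) by the margin of the set D score over the next score in steps of 0.25, with a dotted line at 0.5. Set D was the smallest class in the WT library and 38.2% of the Nuc1 library, and 42 of the 90 WT cells lay left of the dotted line against 79 of 457 Nuc1 cells.

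The score forms a range and has no gap at its border. The margin by which set D exceeded the next set was under 0.1 in 16 WT and 19 Nuc1 cells and under 0.5 in 42 and 79, and its median was 0.637 in WT and 1.76 in the Nuc1 library. The next set was B or C in most cells (B in 47 and C in 38 WT cells, B in 177 and C in 268 Nuc1 cells). In 19 WT and 40 Nuc1 cells the set D score was itself below 0, that is, set D was the least low. At the border the classes held like amounts of set D RNA. Cells just inside (margin under 0.1) had a median of 156 CPM of the 4 genes together in WT and 201 in the Nuc1 library, and cells just outside had 109 (10 cells) and 227 (28 cells). Because border cells were a larger share of the WT class, the main comparisons below are also given for cells with a margin of at least 0.5, called wide-margin cells, 48 in WT and 378 in Nuc1. This limit was chosen after the data were seen. Wide-margin cells are a part of the set D cells, so a like ratio in them is no separate support.

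Per cell, the summed level of the 4 genes of set D had a median of 640 CPM in WT and 2045 CPM in Nuc1 set D cells, and of 1386 and 2409 CPM in wide-margin cells. Genes of the other sets were present as well. The median in set D cells was 104 CPM (WT) and 57.4 CPM (Nuc1) for set A, 116 and 0 for set B, and 235.5 and 226 for set C. In wide-margin cells these medians were 18.9 and 31.9 for set A, 74.4 and 0 for set B, and 235.5 and 206 for set C. UMIs of all 4 genes of set D occurred in 4 WT and 130 Nuc1 cells, and of none in 5 and 18. All 4 outside markers were detected in 10 WT and 224 Nuc1 cells, and none of them in 15 and 18.

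The set D cells held 1331556 UMIs in WT and 7495538 in the Nuc1 library, with a median of 13235 and 14573 per cell, so a gene with no UMI in the WT cells may have up to 2.25 CPM there (3 UMIs) and WT values are the less precise. The whole libraries held 34517542 and 35794685 UMIs. The median share of mitochondrial UMIs was 9.31% and 8.28%. The libraries shared 2 barcodes, neither of them a set D cell. Cryba1 (ENSRNOG00000008700), the gene with the insertion, had 0 UMIs in the set A to D cells of both libraries, so it could not check the genotype labels. The Y-linked genes Eif2s3y and Kdm5d had 0 UMIs in WT set D cells and 228 and 57 in Nuc1 set D cells. In the other classes Eif2s3y had 0.331 CPM (3 UMIs) in WT set A cells and none in WT set B and C cells, against 26.2, 35.4 and 25.4 CPM in Nuc1 set A, B and C cells. The sex of the animals and the genotype therefore cannot be told apart in any difference below.

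All 4 genes of the rule were highest in set D cells, as the rule favours, so their levels are a description. Inmt (ENSRNOG00000011250) had 76 UMIs in WT set D cells, 57.1 CPM (45.0 to 71.4), and 5974 UMIs in Nuc1 set D cells, 797 CPM (777 to 817). Outside set D it was close to absent, at 0, 0.644 and 0.197 CPM in WT set A, B and C cells and 1.25, 0.885 and 4.12 CPM in the Nuc1 library. The log2 ratio of Nuc1 over WT in set D cells was 3.80 (3.48 to 4.15), and 3.08 (2.75 to 3.43) in wide-margin cells, where Inmt had 117 and 988 CPM. Inmt was higher in the Nuc1 library in the class as a whole and at a wide margin. Class and margin were both cut with Inmt in the score, so the wide-margin ratio is no separate support. A UMI of Inmt was found in 13 of 90 WT cells, 14.4% (7.92 to 23.4), and 238 of 457 Nuc1 cells, 52.1% (47.4 to 56.7). With each cell thinned to 5000 UMIs, which left out 1 WT and 7 Nuc1 cells, the shares were 11.2% and 41.3%. Cells over the glial gate lay outside the scored fibroblasts, with no limit on their collagen level. In them the shares were 0 of 182 in the WT library (exact upper limit 2.01%) and 7.04% in the Nuc1 library. Their median depths were 23048 and 22697 UMIs, and after thinning the shares were 0 and 2.12%.

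Cyp26b1 (ENSRNOG00000015076) had 128 CPM (110 to 149) in WT and 569 CPM (552 to 586) in Nuc1 set D cells. Its log2 ratio was 2.15 (1.93 to 2.38), and 1.70 (1.46 to 1.96) in wide-margin cells. The next class was far lower, with 13.0 CPM in WT set C cells and 19.0 CPM in Nuc1 set B cells. The share of cells with a UMI was 32.2% in WT and 61.5% in the Nuc1 library, and 0.549% and 4.76% over the glial gate. Outside set D it had 0.772 CPM in WT and 16.2 CPM in Nuc1 set A cells, 6.33 and 19.0 CPM in set B cells and 13.0 and 4.49 CPM in set C cells. All classes were cut with Cyp26b1 among the genes of the score, so these levels describe the classes.

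Gjb2 and Vcam1 differed less between the libraries. Gjb2 (ENSRNOG00000008855) had 451 CPM (416 to 489) in WT and 663 CPM (645 to 682) in Nuc1 set D cells, and its log2 ratio was 0.55 (0.43 to 0.68), which was 0.30 (0.16 to 0.45) in wide-margin cells. Vcam1 (ENSRNOG00000014333) had 297 CPM (269 to 328) and 469 CPM (454 to 485), a log2 ratio of 0.66 (0.51 to 0.81). In wide-margin cells Vcam1 had 525 and 572 CPM and its ratio of 0.12 had an interval that included 0 (-0.04 to 0.29). Neither gene passed 2-fold. Vcam1 was also present in cells over the glial gate, with 60.0 CPM in WT and 74.6 CPM in the Nuc1 library, whereas Gjb2 had 0.709 and 17.9 CPM there. Set C cells in turn held Gjb2 too, at 131 and 147 CPM.

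**Figure D2:**
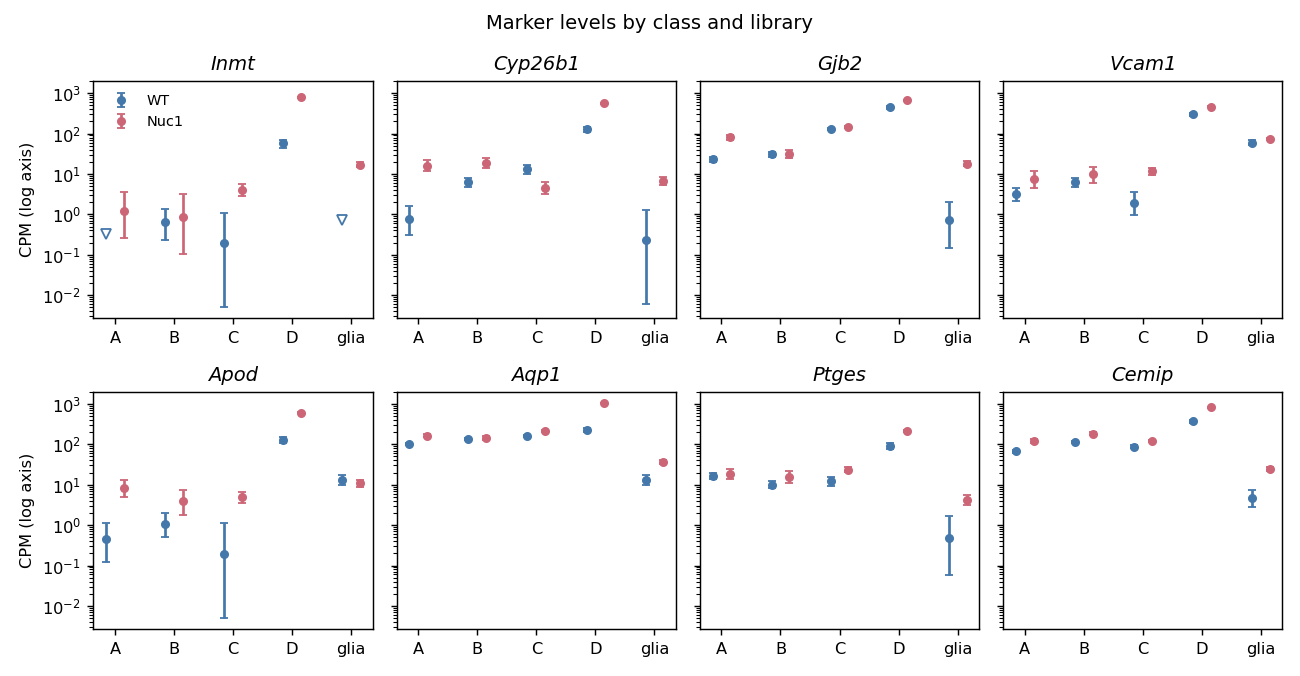
Level in CPM (log axis) of the 4 genes of the rule (top) and the 4 markers outside it (bottom) in the set A, B, C and D cells and in cells over the glial gate, for the WT (blue) and Nuc1 (red) libraries. Bars are exact Poisson 95% intervals and open triangles mark 0 UMIs, drawn at the level of 3 UMIs. Each marker was highest in set D cells of both libraries, and Aqp1 in the WT library was the least apart, at 222 CPM against 159 CPM in set C cells.

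The 4 markers outside the rule were each highest in set D cells and each at least 2-fold higher in the Nuc1 library. Over all 7269 genes with at least 100 UMIs in set D cells, 245 (3.37%) were at least 2-fold higher and 186 (2.56%) at least 2-fold lower in the Nuc1 library, with a median log2 ratio of 0.05. The minimum counts both libraries together, and the Nuc1 set D cells held 5.63 times the UMIs of the WT cells, so that a gene high in the Nuc1 library passed it more easily. Of the 245 genes, 137 had under 11.3 CPM in WT, which is the level of 100 UMIs over both libraries, while 31 of the 186 had under that level in Nuc1 cells. With that level required of the mean of both libraries, a choice made after the data were seen, 196 of 7226 genes were at least 2-fold higher and 233 at least 2-fold lower. The counts of listed genes below share this limit. Apod (ENSRNOG00000048273) had 128 CPM (109 to 148) in WT and 600 CPM (583 to 618) in Nuc1 cells, and its log2 ratio was 2.23 (2.01 to 2.46), although 11.7% of its UMIs came from 1 cell. Aqp1 (ENSRNOG00000011648) had 222 CPM (197 to 248) and 1060 CPM (1037 to 1084), a ratio of 2.26 (2.09 to 2.43). Both were past 2-fold in wide-margin cells too, at 1.60 and 2.07. Ptges (ENSRNOG00000006320) had 91.6 CPM (76.1 to 109) and 215 CPM (204 to 225), and Cemip (ENSRNOG00000012442) had 372 CPM (340 to 406) and 826 CPM (805 to 847). Their ratios of 1.23 and 1.15 were 0.72 and 0.69 in wide-margin cells, under 2-fold.

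Aqp1 was the marker least apart from the next class in the WT library. It had 104, 139 and 159 CPM in WT set A, B and C cells and 164, 140 and 214 CPM in the Nuc1 library. Its fold over the next class was 1.39 (1.21 to 1.59) in WT and 4.96 (4.71 to 5.22) in the Nuc1 library, where Cemip (4.47) and Gjb2 (4.51) had lower folds. Its share of cells with a UMI was 45.6% in WT set D cells, below the 59.3% of WT set C cells, but 85.8% in Nuc1 set D cells against 63.6% in set C. In the WT library the share and the level thus gave opposite orders, and in the Nuc1 library both were highest in set D cells. Mindy4, which lies between Inmt and Aqp1, had 6.76 and 13.9 CPM in set D cells, and its log2 ratio was 1.03. Of the protein-coding genes beyond the pair, Crhr2 had 0 UMIs in both libraries and Ghrhr 0 and 2.

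Within Nuc1 set D cells the markers were often found in the same cells, and in WT set D cells this held for some pairs. In the Nuc1 library, of the 238 cells with a UMI of Inmt, 92.0% also had Vcam1 and 89.5% Gjb2, against 74.0% and 77.2% of the 219 cells without Inmt. Apod was found in 76.1% against 40.6% and Maob, a monoamine oxidase, in 82.8% against 58.0%. In summed levels the cells with Inmt also held more Apoe (5423 against 2979 CPM), Slc7a11 (198 against 52.8 CPM), Sparcl1 (404 against 135 CPM) and Entpd1 (90.7 against 36.9 CPM). They held less Tagln, a smooth muscle gene (289 against 551 CPM), and like amounts of Col1a1 (3366 against 3408 CPM). The median depth of the cells with and without Inmt was 15161.5 and 14034 UMIs. In the WT library, of the 13 cells with Inmt, 92.3% had Vcam1, against 67.5% of the 77 without, but 30.8% had Cyp26b1, against 32.5%. Vcam1 was found in 68.7% of the 67 WT cells with Gjb2 and in 78.3% of the 23 without. Aldh1a2, which makes retinoic acid, and Cyp26b1, which breaks it down, were found in part in the same cells. Of 186 Nuc1 cells with Aldh1a2, 133 (71.5%) had Cyp26b1, against 54.6% of the 271 without. In the WT library 13 of 38 cells with Aldh1a2 had Cyp26b1 (34.2%), against 30.8% of the 52 without. All these cells are of 1 library each and were chosen by these genes, so the shares describe the class.

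Beyond the markers, 102 of 7269 genes (1.4%) were at least 2-fold higher in set D cells than in each of the classes A, B and C in both libraries, on CPM plus 10. The 15 with the highest mean fold over the next class, genes of the rule left out, included Sfrp1, Apoe, Maob, Sparcl1, Slc7a11, Mdk, Aldh1a2, Entpd1, Cp, Sept4, Rarres1, Sapcd1, Mgst1 and Slc2a12. Sfrp1, a secreted inhibitor of Wnt signals, had 238 CPM in WT and 383 CPM in Nuc1 set D cells, against 6.10 and 33.4 CPM in set C, the next class. Apoe, a lipid carrier, had 1627 and 4255 CPM, against 247 and 268 CPM in set C. Slc7a11, which takes up cystine in exchange for glutamate, had 152 and 128 CPM, against 5.91 and 6.43 CPM in set C. Entpd1, an enzyme that degrades extracellular ATP, had 89.4 and 65.0 CPM, against 3.74 CPM in WT set C and 1.67 CPM in Nuc1 set A cells. These genes thus set the class apart in both libraries. They are a description of the class, since the classes were cut from the same cells.

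Of these 15 genes, 4 were also at least 2-fold higher in the Nuc1 library, Maob, Apoe and Sparcl1 among them, and none at least 2-fold lower. Maob had 46.6 CPM in WT and 309 CPM in Nuc1 cells, and its log2 ratio was 2.73 (2.37 to 3.12). The ratio was 1.39 (1.32 to 1.45) for Apoe and 1.39 (1.14 to 1.65) for Sparcl1, a matrix-associated glycoprotein. In wide-margin cells Maob had a ratio of 2.98, Apoe of 1.52 and Sparcl1 of 1.30. Apoe did not pass 2-fold higher in the other classes, where its ratios were -0.03 in set A, -1.26 in set B and 0.12 in set C. At the other end, Slc7a11 (-0.24), Entpd1 (-0.46), Rarres1 (-0.14), Sapcd1 (-0.03), Sept4 (-0.13) and Mgst1, a glutathione transferase (-0.86), were within 2-fold. In wide-margin cells Mgst1 had a ratio of 0.17 and Sept4 of 0.76. Several of these genes are also glial. Cells over the glial gate held Apoe at 2476 and 3754 CPM, Sparcl1 at 993 and 1986 CPM and Maob at 73.7 and 173 CPM. Mlc1, an astrocyte gene that the gate did not use, had 998 CPM in those cells of the WT library. In set D cells Mlc1 had 4.51 CPM in WT and 5.34 CPM in Nuc1. The part of glial RNA in the levels of the leading genes was not tested. With z-scores taken within each library, the ratios of Slc7a11 (1.14), Entpd1 (1.01), Sept4 (1.25) and Sapcd1 (1.34) were past 2-fold higher, so that their place within 2-fold held for the main scoring and not for that one.

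**Figure D3:**
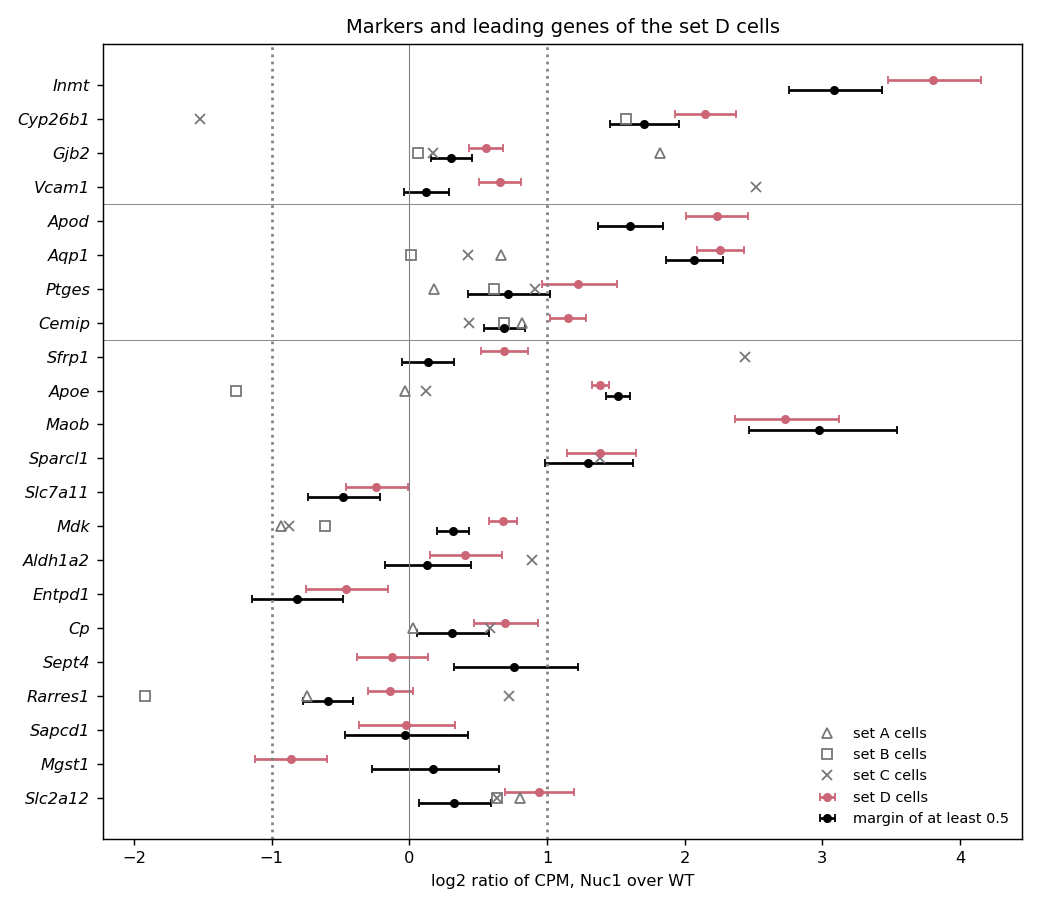
Log2 ratio of CPM in Nuc1 over WT for the 4 genes of the rule (top), the 4 other markers (middle) and the leading genes named above (bottom). Red points are set D cells and black points wide-margin cells, with exact 95% intervals, and grey symbols are set A, B and C cells where the gene had at least 100 UMIs. The ratios run from 3.80 for Inmt to -0.86 for Mgst1, and those of Gjb2, Vcam1 and Sfrp1 move toward 0 in wide-margin cells.

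The name leptomeningeal was borne out only in part, and genes of the dura gave like counts. Of 25 genes listed for leptomeningeal fibroblasts, 19 reached 100 UMIs. Of these 19, 7 were highest in set D cells in both libraries, and the same share over all genes was not counted. At least 2-fold above every other class were 2 of the 19, against 1.4% of all genes. Transcription factors of the layer were present, with Foxc1 at 443 CPM (WT) and 401 CPM (Nuc1), Tbx18 at 157 and 251, Zic4 at 63.1 and 130 and Foxd1 at 282 and 84.9. Presence alone does not set the class apart, since the other classes held genes of the list too. The summed level of the list was 13949 and 13267 CPM in set D cells, most of it from Igfbp2 alone. In set A, B and C cells the sum was 9798, 12338 and 10154 CPM in WT and 7794, 11503 and 6808 CPM in Nuc1. Aldh1a2 had 103 and 136 CPM, against 5.51 and 10.3 CPM in set C cells, the next class. The transporters that define this layer in other tissue were low in both libraries. Slc13a3, with the most UMIs of them in Nuc1 cells, had 15.2 CPM there. The UMIs that follow do not compare levels, since Nuc1 set D cells held 5.63 times the UMIs of WT cells. Slc6a13, Slc13a3 and Slc47a1 had 0 UMIs in WT cells and 44, 114 and 0 in Nuc1 cells, Slc22a6 had 2 and 108, Slc22a8 had 7 and 49, and the lipocalin Ptgds had 13 and 223, of which 1 cell held 30.9%. Among dural fibroblast genes, 5 of 10 were measured, and 2 of these 5 were highest in set D cells in both libraries. Mgp had 5536 and 4418 CPM. Fmod, at 120 and 57.6 CPM, was the 1 of the 5 at least 2-fold over the other classes in both libraries. By these counts, on few genes, the leptomeningeal list stood out no more than the dural list. Of the arachnoid barrier genes, Cldn1 had 0 UMIs, Cdh1 had 14.3 and 3.07 CPM and Krt8, a keratin, 213 and 41.0 CPM. The cells are therefore called set D cells, or by 2 genes of the rule, Inmt and Cyp26b1. In WT set D cells these 2 genes were found in only 14.4% and 32.2% of cells, against 52.1% and 61.5% in Nuc1 set D cells.

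Of the 19 leptomeningeal genes measured, 6 were at least 2-fold higher in the Nuc1 library and 1 lower, with a median log2 ratio of 0.45 against 0.05 for all genes. The 6 were Slc13a3, Slc22a6, Ptgds, Zic2, Zic4 and Bmp7, a bone morphogenetic protein with 11.3 CPM in WT and 39.4 CPM in Nuc1 cells. Slc13a3, with no UMI in WT cells, was at least 6.75-fold higher against the level that 3 UMIs would give. Foxd1 was the gene lower, with a log2 ratio of -1.73 (-1.92 to -1.54). It was also lower in set A (-2.59), B (-2.48) and C (-1.99). In wide-margin cells the median was 0.39, with 4 genes higher and 4 lower. Of the 6 genes, 4 had under 11.3 CPM in WT, Slc13a3, Slc22a6, Ptgds and Bmp7, and so reached the minimum through the Nuc1 library, where they are high. With the minimum on the mean of both libraries, 4 of 17 were higher and 1 lower, with a median of 0.41.

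Genes listed under retinoic acid synthesis, binding and reception lay within 2-fold but for 1 listed under synthesis and 1 under binding. Of 7 genes listed under synthesis, 4 were measured and Dhrs3 was the 1 past 2-fold. Dhrs3 is a retinaldehyde reductase, which turns retinaldehyde back to retinol and so away from retinoic acid. It had 69.1 CPM in WT and 222 CPM in Nuc1 cells, and its log2 ratio was 1.68 (1.38 to 2.001). Dhrs3 was higher in the Nuc1 library in set A (1.75), B (1.01) and C (2.14) as well. Aldh1a2 had a ratio of 0.41 (0.15 to 0.67), and 0.13 in wide-margin cells with an interval that included 0. Aldh1a1 and Aldh1a3 stayed under 100 UMIs. In breakdown, Cyp26b1, a gene of the rule, was the enzyme measured, and Cyp26a1 and Cyp26c1 had 0 UMIs. Among binding proteins, Crabp2 had 436 and 272 CPM (ratio -0.68, -0.81 to -0.54, and -1.02 in wide-margin cells) and Rbp4, the plasma retinol carrier, 12.8 and 27.9 CPM, of which 1 cell held 13.7%. Of the receptors, 4 of 6 were measured and none passed 2-fold in either direction, with Rara at 74.3 and 67.9 CPM. Over all genes 3.37% were at least 2-fold higher and 2.56% lower.

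Prostaglandin genes lay on both sides. Ptges was higher in the Nuc1 library, whereas Ptgs2, the inducible cyclooxygenase upstream of it, was lower, with 88.6 CPM in WT and 39.1 CPM in Nuc1 cells, and its log2 ratio was -1.18 (-1.49 to -0.86). Ptgs1 had 9.76 and 18.1 CPM and the general synthases Ptges2 and Ptges3 had ratios of 0.37 and -0.02. Of 6 genes measured, 2 were past 2-fold higher (Ptges and Ptgds) and 1 lower (Ptgs2). Ptgs2 was also lower in set A (-1.34) and C (-2.17), and its ratio in set B was 0.02.

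Lipid carriers had the highest median of the lists with at least 10 genes measured, 0.85 in set D cells and 0.99 in wide-margin cells, against 0.13, 0.32 and 0.01 in set A, B and C cells. Of 10 measured, 4 were at least 2-fold higher (Apod, Apoe, Ptgds and Fabp4) and 1 lower (Pltp). Clu was just under, with 550 CPM in WT and 1083 CPM in Nuc1 cells (ratio 0.98, 0.87 to 1.09), and was higher in set A (1.79), B (2.03) and C (1.67) too. Fabp4 had 6.01 and 15.3 CPM, of which 1 cell held 30.1%, and it did not reach the minimum on the mean of both libraries, under which the median was 0.72. Pltp, which transfers phospholipids, had 38.3 and 9.21 CPM. The summed level of the list was 2656 CPM in WT and 6235 CPM in Nuc1 set D cells, most of it Apoe.

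**Figure D4:**
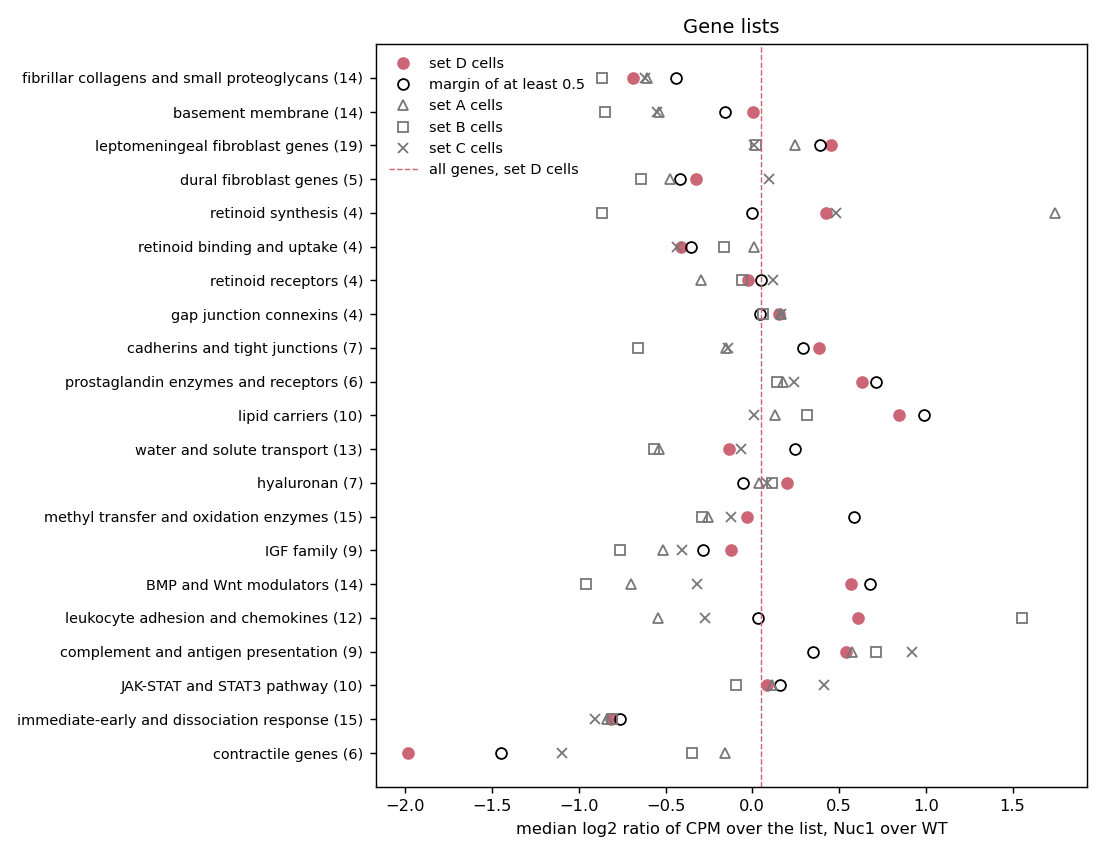
Median log2 ratio of CPM in Nuc1 over WT over the measured members of 21 gene lists (number measured in set D cells in brackets), in set D cells (red), wide-margin cells (open black) and set A, B and C cells (grey symbols). The dashed line is the median over all genes in set D cells, 0.05. Lipid carriers lay highest in set D cells at 0.85 and contractile genes lowest at -1.98, and the immediate-early list lay between -0.81 and -0.91 in the 4 classes.

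Solute transport and junction genes were mixed. Of 31 genes of water and solute transport, 13 were measured, 5 at least 2-fold higher and 3 lower, against 3.37% and 2.56% of all genes. With the minimum on the mean of both libraries 2 of 10 were higher and 3 lower, since Slc13a3, Slc22a6 and Kcnj13 did not reach it. Aqp1, Kcnj13, Slc13a3 and Slc22a6 were among the higher ones. Lower were Atp1b1 (128 and 52.0 CPM), Slc23a2 (61.6 and 22.0 CPM) and Slc38a2 (246 and 110 CPM). In wide-margin cells none of the list was 2-fold lower, and Atp1b1 had 31.1 and 36.9 CPM, a log2 ratio of 0.24, and Slc23a2 a ratio of -0.99. Among 4 connexins measured none passed 2-fold, with Gja1, the main connexin of fibroblasts, at 1065 and 901 CPM and Gjb6 at 15.8 and 30.0 CPM. Cadherins and tight junction genes likewise had none of 7 past 2-fold. Cdh11, a mesenchymal cadherin, had 947 and 613 CPM (ratio -0.63).

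Fibrillar collagens and small proteoglycans had a median log2 ratio of -0.69 over 14 genes, 4 of them at least 2-fold lower in the Nuc1 library (Dcn, Fmod, Col11a1 and Col12a1) and 1 higher (Prelp). The list holds the 4 genes of the collagen gate, Dcn and Col1a1 among them. Without these 4 the median was -0.60 over 10 genes, with 3 lower and 1 higher. Dcn had 943 CPM in WT and 351 CPM in Nuc1 cells (ratio -1.43, -1.52 to -1.33) and Col1a1 5113 and 3386 CPM. In wide-margin cells the median was -0.44, or -0.36 without the gate genes, and none was 2-fold lower. The medians of set A, B and C cells were -0.61, -0.87 and -0.62, and -0.45, -0.87 and -0.37 without the gate genes. Basement membrane genes had a median of 0.00 over 14 genes in set D cells, against -0.54, -0.85 and -0.55 in the other classes. Col15a1 had 19.5 and 82.3 CPM (ratio 2.07, 1.51 to 2.70) and Col18a1 160 and 491 CPM (1.62, 1.42 to 1.83). These 2 collagens of the basement membrane zone did not pass 2-fold higher in set A, B or C, where their ratios lay between -3.70 and 0.06. Of the 14 genes measured, 10 were highest in set D cells in both libraries. The share of all genes that were highest there was not counted, so this count has nothing to be set against.

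Of 7 hyaluronan genes measured, Cemip and Hapln1, a link protein, were at least 2-fold higher and Cd44 lower, while in wide-margin cells none of 6 was past 2-fold either way. There the ratios of Cemip and Hapln1 were 0.69 and 0.89. Hapln1, with 8 UMIs in WT and 121 in Nuc1 cells, reached the minimum through the Nuc1 library. Has1, a hyaluronan synthase, had 27 UMIs in WT and 3 in Nuc1 cells, and Cd44, the receptor, had 61.6 and 12.4 CPM but 3.11 and 6.37 CPM in wide-margin cells. Of methyl transfer and oxidation enzymes, 15 were measured, and Inmt, Maob, Fmo1 and Aox1 were at least 2-fold higher. Fmo1, a flavin monooxygenase, had 17.3 and 54.8 CPM (ratio 1.66, 1.06 to 2.34), and had ratios of 0.03, -0.81 and -0.97 in set A, B and C. Aox1, an aldehyde oxidase, had 23.3 and 57.0 CPM and was higher in set A (1.28), B (1.69) and C (2.76). Nnmt, a further methyltransferase, had 23.3 and 22.1 CPM. The median of the list was -0.03, and 0.58 in wide-margin cells.

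Signalling ligands were among the genes that were higher. Of 14 genes of BMP and Wnt signalling measured, Bmp7, Bambi, Wnt4 and Wnt6 were at least 2-fold higher and Sfrp4 lower, with a median log2 ratio of 0.57 against -0.70, -0.96 and -0.32 in set A, B and C cells. Wnt4 had 14.3 CPM in WT and 67.5 CPM in Nuc1 cells (ratio 2.23, 1.58 to 2.99), and Bambi, a decoy receptor, 24.0 and 87.9 CPM (1.87, 1.36 to 2.43). In wide-margin cells Wnt4 had a ratio of 1.69, Bambi of 1.45 and Bmp7 of 1.56, and Wnt6 of 0.89. Igf2, a growth factor, had 543 and 827 CPM (ratio 0.61, 0.50 to 0.72), and Igfbp2, which binds it, 9339 and 8904 CPM. Igfbp5 and Igfbp6 were lower, at ratios of -0.87 and -1.27.

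Of 12 chemokine and adhesion genes measured, 4 were at least 2-fold higher and 1 lower, with a median log2 ratio of 0.61. In wide-margin cells 2 of 9 were higher and 3 lower, with a median of 0.03. Several rested on few cells. Cxcl13, a B cell chemokine, had 0 UMIs in WT and 138 in Nuc1 cells, at least 8.17-fold higher, and reached the minimum through the Nuc1 library alone, and Ccl19, a lymphocyte chemokine, had 12.0 and 31.2 CPM. Il33 had 22.5 and 100 CPM and Cxcl10 16.5 and 68.0 CPM, but 1 cell held 27.2% and 38.5% of their UMIs, and in wide-margin cells they had 0 and 6.53 CPM and 32.6 and 16.1 CPM. Cxcl1 was lower, at 157 and 55.8 CPM. Of complement and antigen presentation genes, Cfd had 12.8 and 83.6 CPM (ratio 2.70, 2.02 to 3.50) and RT1-A1 12.0 and 83.1 CPM (2.78, 2.08 to 3.61). RT1-A1 was higher in set A (3.17), B (3.36) and C (3.47) too. It belongs to a family of near-identical class I genes whose reads the counting may split, and RT1-A2 had 42.1 and 33.4 CPM.

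The study looked at STAT3 pathway genes in astrocytes, where it reported lower Jak2 and Lepr in Nuc1. Set D cells are not those cells. Of 16 genes of JAK-STAT signalling, 10 were measured and none passed 2-fold. Over all genes 3.37% were at least 2-fold higher and 2.56% lower, so this count is no result about the pathway. Il6st, the shared cytokine receptor, had 54.1 CPM (WT) and 84.9 CPM (Nuc1), a log2 ratio of 0.65 (0.30 to 1.02). Pik3ca had a ratio of 0.18 (-0.15 to 0.52), Jak2 of -0.20 (-0.62 to 0.25), Lepr of -0.03 (-0.23 to 0.19), Stat3 of -0.01 (-0.22 to 0.21) and Ptpn1, the phosphatase, of 0.09 (-0.17 to 0.36). Of these 6 genes, Il6st alone had an interval that left out 0, and in wide-margin cells its ratio was 0.31 (-0.13 to 0.77).

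Among genes with at least 200 UMIs, of which no cell held over 10%, the 10 highest ratios were those of Eif2s3y, Defb10, Mpzl2, Inmt, Mrvi1, Angpt2, Pparg, RT1-A1, Maob and Mt3. All 10 were past 2-fold in wide-margin cells too, which are a part of the cells that ranked them. Of the 10, 7 had under 11.3 CPM in WT and so reached the minimum through the Nuc1 library, whereas none of the 10 lowest had under that level in Nuc1 cells. Eif2s3y is Y-linked, and was at least 13.5-fold higher. Defb10, a defensin, had 2 UMIs in WT and 435 in Nuc1 cells (log2 ratio 5.17, 3.41 to 8.32) and Mpzl2, an adhesion protein, 1 and 215 (5.06, 2.76 to 10.6). Pparg, a nuclear receptor of lipid metabolism, had 4.51 and 33.2 CPM (2.85, 1.74 to 4.34), and Angpt2, a ligand of endothelial receptors, 4 and 208 UMIs (3.16, 1.83 to 5.10). Past 2-fold the same way were also 8 of the 10 in set A, 6 in set B and 6 in set C, so part of this group was also higher in the other fibroblasts, on few UMIs for some (Defb10 had 0 and 6 in set A). Angpt2, at 0.02, -1.81 and 0.54, and Maob, at 0.61, 0.33 and 0.20, did not pass 2-fold higher there.

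**Figure D5:**
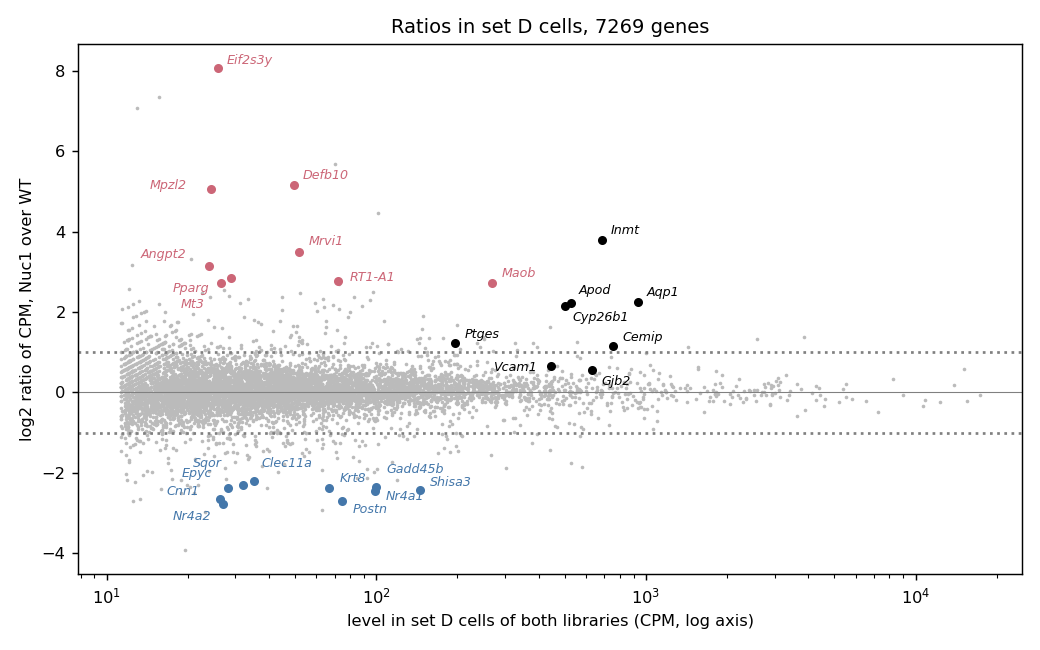
Log2 ratio of CPM in Nuc1 over WT against the level in the set D cells of both libraries (CPM, log axis) for 7269 genes with at least 100 UMIs, with dotted lines at 2-fold. Red names are the highest and blue names the lowest ratios among genes with at least 200 UMIs, and black names are the 8 markers. All 8 markers lie above 0, from 0.55 for Gjb2 to 3.80 for Inmt.

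The 10 lowest were Nr4a2, Postn, Cnn1, Nr4a1, Shisa3, Epyc, Krt8, Gadd45b, Sqor and Clec11a. All 10 were past 2-fold in wide-margin cells, again a part of the same cells. The orphan nuclear receptors Nr4a1 (324 CPM in WT and 59.2 CPM in Nuc1 cells) and Nr4a2 (98.4 and 14.3 CPM) are immediate-early genes and were lower in every class, Nr4a1 at -2.23, -2.17 and -2.76 in set A, B and C. The list of 15 immediate-early and dissociation genes had a median of -0.82 in set D cells, and of -0.84, -0.81 and -0.91 in the other classes, and its summed level was 8534 CPM in WT and 4857 CPM in Nuc1 set D cells. Its part in other differences was not tested. Postn, a matrix protein, had 264 and 40.8 CPM and was lower in set A (-2.71), B (-4.07) and C (-2.02). Shisa3 had 468 and 87.3 CPM, and 82.4 and 32.2 CPM in wide-margin cells.

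Contractile genes were the lowest of the 21 lists plotted, with a median log2 ratio of -1.98 over 6 genes and 4 past 2-fold lower (Tagln, Acta2, Cnn1 and Lmod1). Tagln had 1495 CPM in WT and 414 CPM in Nuc1 set D cells, and in wide-margin cells 956 and 350 CPM. In border cells of the WT library it had 1999 CPM, and in WT set B cells, where it was highest, 3108 CPM. Acta2 had 244 and 56.2 CPM, and 1 cell held 16.4% of its UMIs. The summed level of the list in WT cells was 6160 CPM in set B, 3138 CPM in set D and 1222 CPM in set C.

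RNA of macrophages, red blood cells and ciliated cells was low, and other lists were carried by few genes each. Of 10 macrophage and microglia genes none reached 100 UMIs, with a sum of 14.3 CPM in WT and 4.94 CPM in Nuc1 set D cells, and 2 of them were at 0. Erythroid genes summed to 0 and 0.133 CPM and genes of motile cilia to 3.76 and 14.8 CPM. Of the pericyte list, Pdgfrb, which fibroblasts also express, made up 146 of 157 CPM in WT and 252 of 262 CPM in Nuc1 set D cells. The endothelial list summed to 49.6 and 114 CPM, with Flt1 at 20.3 and 52.7 CPM, Cdh5 at 17.3 and 28.7 CPM and Emcn at 9.01 and 23.9 CPM, and no cell held over 4.19% of the UMIs of any of these 3 genes. The list was 7.30 to 13.0 CPM in set A, B and C cells, so its sum was higher in set D cells in both libraries, while Tie1 had 0 UMIs, and Cldn5 and Kdr had 0 in WT and 3 and 7 in Nuc1 set D cells. The astrocyte list summed to 1198 and 1024 CPM, below the other classes (1380 to 2315 CPM), and was mainly Gja1. The Schwann lineage list summed to 66.8 and 37.4 CPM, against 18.7 to 38.7 CPM in the other classes. It was mainly S100b, a gene shared with other glia, at 58.6 and 27.6 CPM, and Sox10 had 0 UMIs in WT and 1 in Nuc1 set D cells. The neuronal list was mainly Stmn2, at 66.8 and 157 CPM, below the other classes (168 to 927 CPM). Pdgfra, which is listed for the oligodendrocyte lineage and which fibroblasts also express, had 154 and 359 CPM and was found in 72.2% of WT and 94.3% of Nuc1 set D cells. The part of these lists in the differences between libraries was not tested.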

How the data were processed

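Optic nerve cells of 1 WT and 1 Nuc1 rat library were measured by droplet 3′ RNA sequencing. Per the labels, the authors' tools were Cell Ranger 3.1.0, STAR 2.7 and Seurat 3.1.0 and 3.1.1, and the deposited values are UMI counts per gene and barcode. The genome build is not given in the sources used here. The study's own cell names and doublet removal were not used here, no doublet caller was run, and 1 set D cell lay above a UMI cut of 63402.2.

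Barcodes were scored as described above, on z-scores of log counts per 10000 UMIs over all scored cells of both libraries. The members and gene lists were chosen with earlier results of these data known. UMIs were summed per class and library and given as CPM with exact Poisson intervals. Log2 ratios were taken after adding 0.5 UMI per sum, weighted by the totals, with exact conditional intervals, and a gene was counted past 2-fold among those with at least 100 UMIs in set D cells. Shares have Clopper-Pearson intervals. Named genes were those of the rule, the gates and the lists, the 10 highest and lowest ratios with at least 200 UMIs, the 15 leading genes, and 6 genes of the study. From the highest, lowest and leading genes were left out mitochondrial and ribosomal genes, genes with no symbol or with a symbol listed more than once (99 symbols), and genes with over 10% of their UMIs in 1 cell. In counts simulated with Poisson error alone for 7269 genes, 95.86% of intervals held the true ratio. The intervals assume the same error, so this checks the calculation and not the spread between cells or animals. Python 3.11.15, numpy 2.4.6, scipy 1.17.1, pandas 2.3.3 and, for 1 alternative scaling (TMM), edgeR 4.0.16 were used. A few genes are not reported here by name, and they stay in the counts and medians of the lists that hold them.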

Additional observations from a re-analysis of the deposited data

Results flagged for a closer look

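Mdk, a heparin-binding growth factor and one of the leading genes, was higher in the Nuc1 library in set D cells, at 688 CPM in WT and 1102 CPM in Nuc1 cells, and its log2 ratio was 0.68 (0.58 to 0.78). It was lower in the Nuc1 library in set A (123 and 64.5 CPM, -0.93), B (134 and 87.6 CPM, -0.62) and C cells (132 and 71.8 CPM, -0.87). In wide-margin cells the ratio was 0.32 (0.20 to 0.43). The opposite direction is what drew attention to it, and the difference between classes was not tested.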

How the results depend on the processing

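No paired analysis was possible because WT and Nuc1 are represented by 1 library each, and for the same reason no replicate could be left out. The difference in the share of set D cells was 32.5 points as reported, 37.4 with at most 10% mitochondrial UMIs, 27.6 with no z-score, 18.2 with z-scores within each library and 24.9 without cells rich in RNA of other cell types (over 500 CPM of macrophage, endothelial, oligodendrocyte and cilia genes, Pdgfra among them), which left out 218 set D cells. Pdgfra had 359 CPM in Nuc1 set D cells and 63.7 to 200 CPM in the other Nuc1 classes. This filter therefore also removes set D cells by a gene that they express themselves, and is no clean check for RNA of other cell types. It was 28.6 with a margin of at least 0.5 and 28.2 with a set D score of at least 0.5, both chosen after seeing the data. Genes at least 2-fold higher in the Nuc1 library numbered 245 as reported, 383 with z-scores within each library, 150 without cells rich in other RNA, 133 with each cell thinned to 5000 UMIs (3822 genes tested), 719 with a minimum of 20 UMIs and 3121 with none. Genes at least 2-fold lower numbered 186 as reported, 295 with z-scores within each library, 78 after thinning, 480 with a minimum of 20 UMIs and 1486 with none. With the minimum on the mean level of both libraries, chosen after seeing the data, these counts were 196 and 233, which turns their balance. Genes at least 2-fold over each other class numbered 102 as reported, 46 with z-scores within each library, 161 with no z-score, 160 with a margin of at least 0.5 and 66 without cells rich in other RNA. Fewer genes tested after thinning and more with a lower minimum follow from those settings, and the cause of the other moves was not tested. Of 47 genes followed, Cryba1 had 0 UMIs and is counted on neither side. The 28 past 2-fold kept their sign under each alternative that gave a value, but 5 of them fell under 2-fold under at least 1. Among these 5, Ptges and Cemip fell to 0.64 and Shisa3 to -0.67. Of the 18 within 2-fold, 10 had a value of the other sign, 46 of 966 values in all, Sept4, Sapcd1 and Mgst1 most often. Low depth in the WT cells limits every ratio of a gene with few UMIs there.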
